A study of Mus musculus with 13 samples.

Results

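The genes described here were the matrix proteases and their inhibitors, a set of 79 genes taken by symbol: 33 Adam, 19 Adamts, 23 Mmp and 4 Timp genes. All 79 were listed among the 24984 genes of the tumor files and the 24421 genes of the sprout files. Of these, 40 passed the filter on low counts in the tumor ECs and 45 in the sprout ECs, and 35 passed in both. No read was counted for 4 members in any tumor library, for 15 in the HTSeq counts of any sprout library, and for 4, Adam20, Adam26a, Adam34 and Adam39, in either set. Of those 15, RSEM gave values above 0 for 2, Adamts13 and Adam28, and listed the other 13 at 0.

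The members were read in 2 groups of RNA-Seq libraries. Tumor ECs and sprout ECs are names for the sorted cells of each set, given by the sort and not by their markers. In the tumor set, 100 CD45-CD31+CD105+ cells per library were sorted from orthotopic tumors of E0771 cells, a mouse mammary carcinoma line. KO libraries came from Apln-/- mice of the C57BL6/J strain bearing shApln tumor cells (n = 3), and WT libraries came from Apln+/+ mice of that strain bearing shRenilla tumor cells (n = 6), so that Apelin was removed from host and tumor cells together. In the sprout set, CD31+ cells were sorted from embryoid bodies grown in collagen I gel with VEGFA164 at 30 ng/ml. They came from female mESCs of C57BL/6x129 background that were haploid when the gene trap was placed in Apln. Apln STOP libraries carried the trap in sense orientation and received DMSO (n = 2). Apln GO libraries carried it reverted by Cre to antisense and received Apelin Pyr13 at 1000 nM (n = 2). The sample titles call these libraries AplnSense and AplnAntiSense. The names STOP and GO, and which group received DMSO or peptide, come from the study's text, since the labels give both agents in a protocol shared by all 4 libraries. Allele, Cre and peptide thus changed together in the sprout set. No label states that replicates came from separate animals or cultures, so p-values measure the spread between these libraries, which may be technical.

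Matrix metalloproteinases (MMPs) are zinc enzymes that cut collagens, basement membrane and other extracellular proteins. Most are secreted as inactive proenzymes, while the membrane-type MMPs act at the cell surface. ADAM proteases are membrane-bound and shed the ectodomains of receptors, ligands and adhesion molecules. ADAMTS enzymes are secreted and cut proteoglycans, procollagens and von Willebrand factor. The TIMPs bind and block their catalytic sites. In angiogenesis these enzymes open the basement membrane in front of the sprouting tip, free matrix-bound growth factors and shed Notch and VEGF receptors.

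Apln, the gene that the models target, was at 12.1, 8.51 and 2.44 CPM (counts scaled to the normalized library size) in the KO libraries and at 416 to 1033 CPM in the WT libraries. Its log2 fold change was -6.70 ± 0.59 (SE, adjusted p = 6.13e-05, edgeR). In the sprout set Apln was at 66.1 and 80.2 CPM in the libraries titled AplnSense (STOP) and at 58.2 and 65.9 CPM in the libraries titled AplnAntiSense (GO). The gene count was thus not lower in the STOP libraries (log2 fold change 0.24 ± 0.16, adjusted p = 0.367, edgeR). It sums all exons, so it cannot separate transcript before the trap from transcript behind it, and every STOP against GO direction here rests on the labels.

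Total counts were 4661044 to 14455093 per library in the tumor set and 12327030 to 16804071 in the sprout set. At that depth, 3 counts corresponded to 0.211 to 0.596 CPM and to 0.177 to 0.244 CPM, respectively. Endothelial markers were present in every library, but their summed level was 721.9 and 962.1 CPM in the STOP libraries and 2883 and 2732 CPM in the GO libraries, and 12 of 13 fell past the thresholds. Markers of undifferentiated mESCs summed to 5993 and 5749 CPM in STOP and to 2306 and 3782 CPM in GO, and 2 of 10 rose past the thresholds. In the tumor set, WT replicate 2 stood apart. Its fibroblast markers summed to 6169 CPM against 62.5 to 220.6 CPM in the other WT libraries and 43.3 to 172.0 CPM in the KO libraries. Endothelial markers in the tumor set summed to 12726 to 16836 CPM in KO and 9369 to 13773 CPM in WT (exact permutation test, two-sided p = 0.0476), and neutrophil markers to 0.24 to 3.17 CPM in KO and 4.52 to 25.01 CPM in WT (p = 0.0238 by the same exact test, the smallest that 3 against 6 libraries can give). With 1 library left out, the exact permutation p for the endothelial markers was 0.0357 without WT replicate 1, 0.0714 without KO replicate 1 or any other WT library, and 0.143 without KO replicate 2 or KO replicate 3. Over the 9 marker lists compared there, the exact permutation tests of the other 7 sums gave p = 0.119 or more. No p was adjusted over the lists.

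In sprout ECs, 2 members were lower in the STOP libraries, as titled, the sheddase Adam15 and the membrane-type protease Mmp15, and none was higher. ADAM15 is a surface ADAM with an integrin-binding RGD motif in humans and is found at endothelial junctions. MMP15, also called MT2-MMP, cuts matrix proteins at the cell surface. Genes were called at an adjusted p under 0.05 and an absolute log2 fold change over 1. The calls were 4.44% of the 45 members tested, while 3.03% of all 14557 tested genes were called lower and 0.852% were called higher.

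Adam15, at chr3:89339640-89350028 (GRCm38), was at 43.4 and 51.7 CPM in STOP and at 108.8 and 102.7 CPM in GO. Both STOP libraries lay well below both GO libraries, and replicates of a group were close. The log2 fold change was -1.15 ± 0.15 (SE, adjusted p = 0.00807, edgeR). Mmp15, at chr8:95352296-95374293, was at 22.3 and 28.8 CPM in STOP and at 63.5 and 61.7 CPM in GO. Both STOP libraries lay below both GO libraries, by a log2 fold change of -1.29 ± 0.17 (adjusted p = 0.00926, edgeR). The TPM values of RSEM, which also divide by transcript length, were 20.6 and 24 against 61.6 and 51.1 for Adam15 and 7.2 and 8.93 against 23.9 and 20.8 for Mmp15.

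Both differences moved together with the endothelial markers, whose median log2 fold change was -1.95, more negative than that of either protease. The markers of undifferentiated mESCs moved the other way, with positive log2 fold changes in 10 of 10 tested genes and a median of 0.90, and their sum exceeded that of the endothelial markers in both STOP libraries and in GO replicate 2. The part of either marker list in the result was not tested. In bulk libraries, fewer cells of a type and less RNA per cell cannot be told apart. Both calls were lost when STOP replicate 1 was left out, with log2 fold changes of -1.01 (adjusted p = 0.0647) for Adam15 and -1.10 (adjusted p = 0.0633) for Mmp15. Leaving out STOP replicate 2, GO replicate 1 or GO replicate 2 kept both calls. Each of these fits had 1 library in a group, which was assumed to vary like the other group.

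The promoter windows of both genes are shown because these were the only members past the thresholds. Each runs from 250 bases before to 50 bases after the start of the gene, on the gene's strand, as given by RefSeq on GRCm38.p6. Capitals mark CCGGAA, the core letters bound by ETS factors, a family that includes the endothelial regulator ERG. The AP-1 letters TGANTCA were also searched, and both motifs were searched on both strands. Neither overlapped the other.
Adam15, chr3:89349979-89350278, minus strand: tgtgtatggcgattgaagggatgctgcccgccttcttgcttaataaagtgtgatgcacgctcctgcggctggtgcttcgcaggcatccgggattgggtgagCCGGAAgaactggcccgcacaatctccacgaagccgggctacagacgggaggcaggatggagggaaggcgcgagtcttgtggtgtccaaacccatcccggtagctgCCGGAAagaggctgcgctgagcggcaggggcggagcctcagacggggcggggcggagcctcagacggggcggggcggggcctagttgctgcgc
Mmp15, chr8:95352046-95352345, plus strand: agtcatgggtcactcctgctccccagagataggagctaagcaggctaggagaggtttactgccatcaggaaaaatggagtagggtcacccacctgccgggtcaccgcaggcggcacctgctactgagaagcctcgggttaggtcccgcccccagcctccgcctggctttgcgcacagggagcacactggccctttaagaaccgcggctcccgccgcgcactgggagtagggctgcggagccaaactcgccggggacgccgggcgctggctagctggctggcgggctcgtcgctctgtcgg

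In the Adam15 window, CCGGAA was found at 2 places, with first bases at positions -149 and -43 relative to the start. The Mmp15 window held neither set of letters. Among all 32851 promoter windows of the table, 14.9% held CCGGAA and 7.81% held TGANTCA. Of the 79 members, 49 had a window, 54 windows in all, of which 5.56% held CCGGAA and 24.1% held TGANTCA. GC content was 65.3% in the Adam15 window and 66% in that of Mmp15, with a median of 52.7% over all windows.

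Of the other ADAM sheddases, Adam10, which sheds Notch receptors and VE-cadherin, was at 106.1 and 146.4 CPM in STOP and at 219.2 and 178.2 CPM in GO. All STOP values lay below the GO values, but the log2 fold change of -0.66 ± 0.19 did not pass (adjusted p = 0.0838, edgeR). Adam17, the TNF converting enzyme, was at 94.1 and 93.4 CPM in STOP and at 121.5 and 107.6 CPM in GO (log2 fold change -0.29 ± 0.13, adjusted p = 0.212, edgeR). Adam19 was at 236.0 and 291.2 CPM in STOP and at 317.5 and 275.8 CPM in GO, and the groups overlapped. Adam12 was at 7.11 and 21.4 CPM in STOP and at 34.5 and 17.2 CPM in GO, and the leukocyte-associated Adam8 was at 2.44 CPM or less in each library. Adam22 and Adam23, which lack an active catalytic site, were higher in both STOP libraries, with log2 fold changes of 0.36 ± 0.20 (adjusted p = 0.285) and 0.58 ± 0.23 (adjusted p = 0.160, edgeR), and neither passed.

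**Figure D1:**
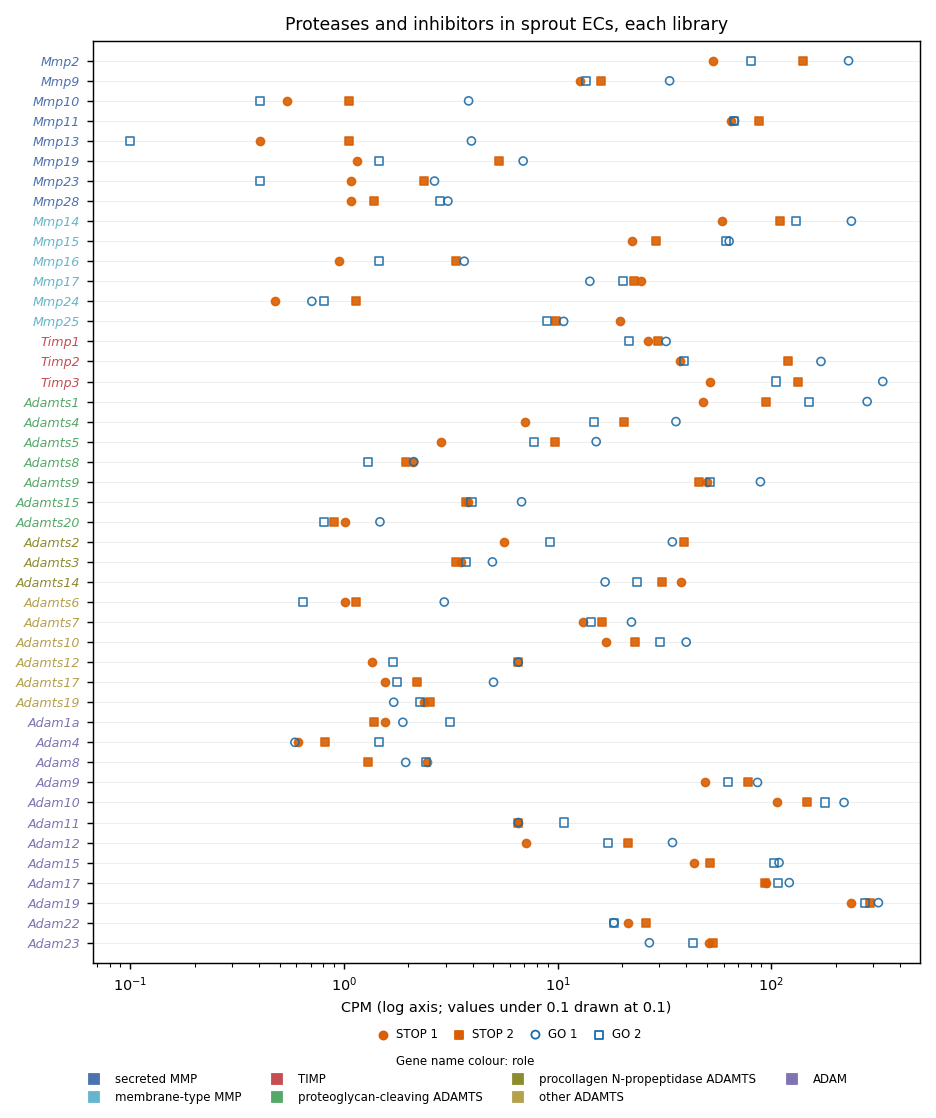
CPM on a log axis of the 45 members tested in the sprout ECs, 1 row per gene and 1 symbol per library (filled, STOP; open, GO). Adam15 and Mmp15 show filled symbols apart from open symbols with little spread within each group, while Mmp2, Timp2, Timp3 and Adamts2 show a wide spread within both groups.

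Without the fold threshold, 6 members had an unadjusted p under 0.05 and were lower (Adam15, Mmp15, Adamts10, Adam10, Mmp28 and Adamts1), as did 14.3% of all genes. Another 2 were higher, Adamts14 and Adam23, against 12.4% of all genes. The groups did not overlap for 13 members that were lower and for 5 that were higher, or 18 of 45, while 29.6% of all genes were lower and 31% were higher by that measure. Of the members tested, 33 had a negative and 12 a positive log2 fold change, with a median of -0.41 against 0.01 over all tested genes. The members' median was 0.04 without GO replicate 1 and -0.79 without STOP replicate 2 or without GO replicate 2.

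Of the secreted MMPs, Mmp2, gelatinase A, which cuts collagen IV, had the highest mean TPM, but Mmp11 was above it per length in STOP replicate 1 (40.3 against 23.8 TPM) and GO replicate 2 (43.1 against 37.5 TPM). Mmp2 was at 53.2 and 141.3 CPM in STOP and at 230.1 and 80.1 CPM in GO. The libraries of each group differed more than the groups did (log2 fold change -0.68 ± 0.87, adjusted p = 0.687, edgeR). Mmp9, gelatinase B, was at 12.7 and 16.0 CPM in STOP and at 33.5 and 13.6 CPM in GO, so that only GO replicate 1 stood higher. Mmp11, stromelysin-3, was even across libraries, at 65.0 to 88.1 CPM. Mmp28, epilysin, was at 1.08 and 1.38 CPM in STOP and at 3.07 and 2.82 CPM in GO (log2 fold change -1.26 ± 0.43, adjusted p = 0.121, edgeR).

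A group of 10 MMP genes lies together on chromosome 9 within 427 kb, between 7272514 and 7699585, and only Mmp13 and Mmp10 of them were tested in the sprout ECs. Both rested on GO replicate 1, with 67 and 65 counts there against 13 or fewer in each other library. Their neighbor Mmp3, stromelysin-1, had 35 counts in GO replicate 1 and 9 or fewer in each other library.

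Among the membrane-type MMPs, Mmp14 (MT1-MMP), which cuts fibrillar collagen and activates pro-MMP2, had the highest mean level per length of all members in both sets. It was not the highest in either STOP library, where Adam19 and Mmp2 led, or in KO replicates 1 and 3, where Adamts4 led. In sprout ECs Mmp14 was at 58.8 and 110.4 CPM in STOP and at 237.2 and 131.0 CPM in GO. The groups did not overlap, and the log2 fold change was -1.13 ± 0.47 (adjusted p = 0.245, edgeR). Mmp17, which is held at the membrane by a GPI anchor, was at 24.6 and 22.7 CPM in STOP and at 14.2 and 20.2 CPM in GO (log2 fold change 0.47 ± 0.23, adjusted p = 0.240, edgeR). Mmp25, also GPI-anchored, was at 19.6 CPM in STOP replicate 1 and at 8.96 to 10.7 CPM in the other libraries.

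Of the inhibitors, Timp3 is bound to the matrix and blocks ADAM and ADAMTS enzymes as well as MMPs. It was at 51.9 and 133.0 CPM in STOP and at 332.7 and 105.2 CPM in GO. STOP replicate 2 was above GO replicate 2, and the log2 fold change of -1.25 ± 0.91 was not past the spread (adjusted p = 0.485, edgeR). It was -0.19 without GO replicate 1 and -2.10 without STOP replicate 2. Timp2, which binds MMP14 at the cell surface and takes part in the activation of pro-MMP2, was at 37.2 and 119.4 CPM in STOP and at 170.9 and 39.0 CPM in GO. Timp1 was at 26.5 and 29.5 CPM in STOP and at 32.2 and 21.5 CPM in GO. Timp4 had 7 counts or fewer in each sprout library and was not tested. None of the 3 TIMPs tested had separate groups. In the annotation Timp1, Timp3 and Timp4 share bases with the synapsin genes Syn1, Syn3 and Syn2, and Timp2 with Cep295nl, but over the 4 sprout libraries HTSeq and RSEM gave close totals, with 1567 and 1542 for Timp1, 5396 and 5384 for Timp2, 9343 and 9401 for Timp3 and 16 and 17 for Timp4.

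Of the proteoglycan-cleaving ADAMTS genes, Adamts1 had the most negative fold change, at 48.2 and 94.5 CPM in STOP and at 281.1 and 149.8 CPM in GO. ADAMTS1 cuts versican and aggrecan. Its groups did not overlap, with a log2 fold change of -1.60 ± 0.52 (adjusted p = 0.181, edgeR). Adamts9 was at 50.1 and 45.7 CPM in STOP and at 89.0 and 51.8 CPM in GO (log2 fold change -0.56 ± 0.26, adjusted p = 0.231, edgeR). The aggrecanases Adamts4 and Adamts5 overlapped between groups, at 7.04 and 20.5 against 35.8 and 14.8 CPM and at 2.84 and 9.69 against 15.2 and 7.75 CPM, respectively. Of the procollagen N-propeptidases, which trim fibrillar procollagens, Adamts2 was at 5.62 and 39.2 CPM in STOP and at 34.5 and 9.20 CPM in GO. Adamts14 was at 37.7 and 30.8 CPM in STOP and at 16.7 and 23.6 CPM in GO (log2 fold change 0.77 ± 0.22, adjusted p = 0.0825, edgeR). Adamts10, which binds fibrillin microfibrils, was at 16.9 and 23.1 CPM in STOP and at 40.0 and 30.2 CPM in GO (log2 fold change -0.81 ± 0.23, adjusted p = 0.0760, edgeR). Adamts13, which cuts von Willebrand factor, had no HTSeq count in any sprout library, but RSEM gave 15.9 and 14.2 TPM in STOP and 26.9 and 27.8 TPM in GO. With the RSEM expected counts its log2 fold change was -0.72 ± 0.15 (adjusted p = 0.0408, edgeR), which did not pass the fold threshold. In the annotation Adamts13 shares 12458 bases with the long noncoding gene Gm36649, and the part of that overlap in the HTSeq count was not tested.

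**Figure D2:**
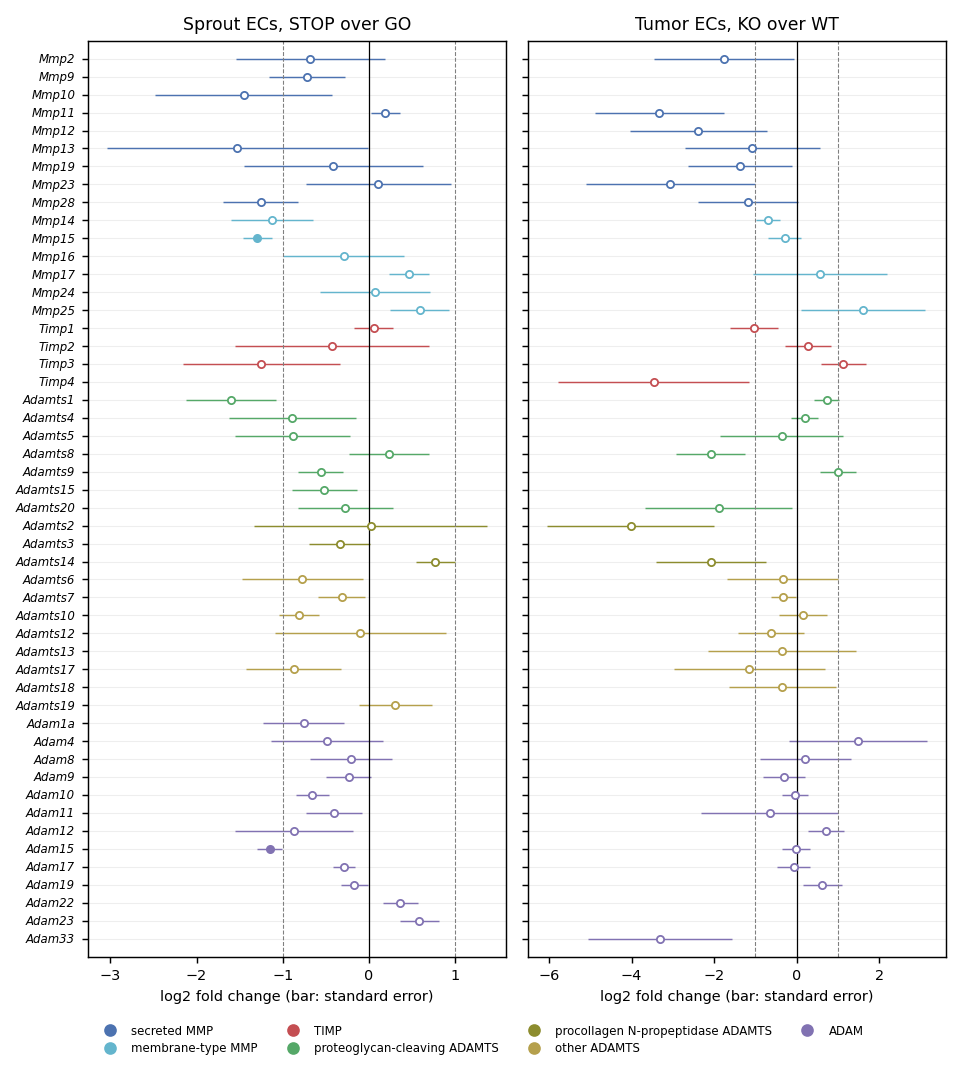
Log2 fold change with its standard error for each member tested in either set, STOP over GO in sprout ECs on the left and KO over WT in tumor ECs on the right, coloured by role, with dashed lines at -1 and 1. Filled symbols mark members past both thresholds, which were Adam15 and Mmp15 in sprout ECs and none in tumor ECs, and the 2 panels have different scales.

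Much of the spread had the same shape in many members. STOP replicate 2 was above STOP replicate 1 and GO replicate 1 above GO replicate 2, each by more than 1.5-fold, in 15 of the 45 members: Adam12, Adamts1, Adamts2, Adamts4, Adamts5, Adamts12, Mmp2, Mmp10, Mmp13, Mmp14, Mmp16, Mmp19, Mmp23, Timp2 and Timp3. Over all tested genes 4.85% had that shape. The opposite shape was found in 0 members and in 1.33% of all genes. Adamts2 was 6.97-fold higher in STOP replicate 2 than in STOP replicate 1 and 3.74-fold higher in GO replicate 1 than in GO replicate 2. For Timp2 these ratios were 3.21 and 4.38, and for Timp3 they were 2.56 and 3.16.

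Fibroblast markers had this shape in 8 of 8 tested genes and mural cell markers in 8 of 9, while endothelial markers had it in 0 of 13. The fibroblast markers summed to 469.1 and 3019 CPM in STOP and to 2995 and 626.6 CPM in GO, and the mural cell markers to 280.8 and 469.7 CPM and to 701.2 and 307.3 CPM, in the order of the replicates. No fibroblast or mural cell marker was at 0 counts in all sprout libraries. Their part in the levels of the 15 members was not tested. Adam15, Mmp15, Adam10 and Adam17 did not have this shape, with ratios between 0.99 and 1.38.

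**Figure D3:**
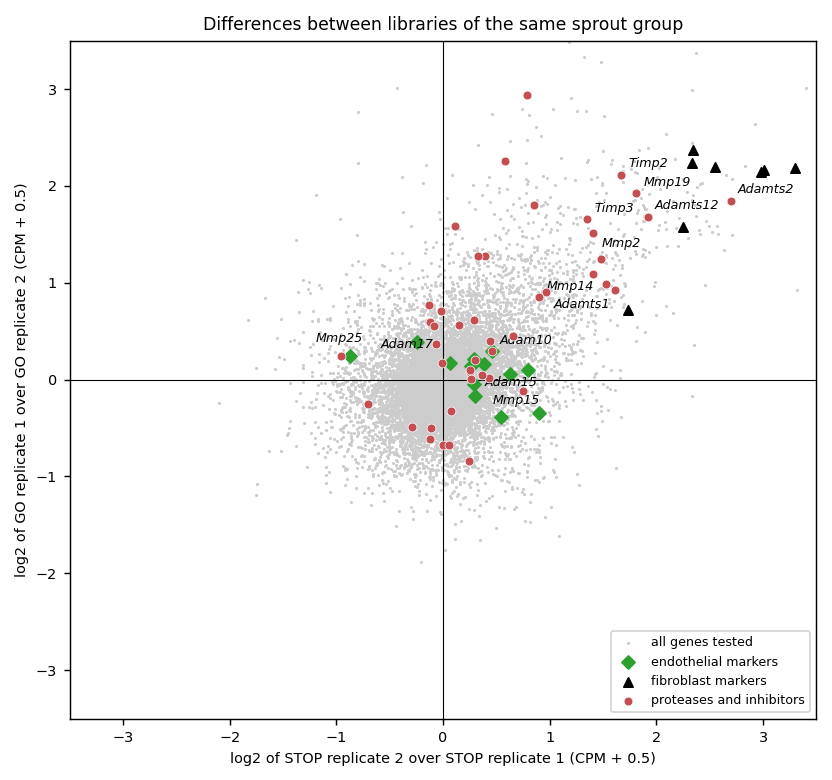
Log2 ratio of CPM + 0.5 between the 2 STOP libraries (x axis) and the 2 GO libraries (y axis) for each tested gene, with genes beyond the axis limits not drawn. Members such as Adamts2, Timp2, Timp3 and Mmp2 lie in the upper right with the 8 fibroblast markers, while Adam15 and Mmp15 lie near the centre with the endothelial markers.

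In tumor ECs no member passed the thresholds in either direction in edgeR, and none did with DESeq2. Among all 13073 tested genes 0.00765% were called lower, which was Apln alone, and 0% were called higher. At an unadjusted p under 0.05, 3 members were lower (Adamts8, Mmp14 and Mmp11) and 2 were higher (Adamts1 and Adamts9), against 2.94% and 1.87% of all genes. None of the 40 tested members had KO and WT libraries that did not overlap, while 1.27% of all genes were lower and 1.06% were higher by that measure. Negative log2 fold changes were found for 28 and positive ones for 12 members, with a median of -0.35 against -0.03 over all tested genes. Without WT replicate 2 the members' median was -0.17, over the 36 that were then tested. With any other library left out it lay between -0.76 (without KO replicate 1) and -0.27 (without KO replicate 3). Of those 5 members, Adamts1 and Adamts9 kept an unadjusted p under 0.05 in 7 of the 9 runs that each left out 1 library, Mmp14 in 6, and Adamts8 and Mmp11 in 4 each (edgeR). Adam28 was not tested, with 18, 4 and 4 counts in KO, 1 in WT replicate 1 and 0 in the other WT libraries.

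Mmp14 was at 417.2, 597.6 and 596.4 CPM in KO and at 576.9, 842.8 and 1269 CPM in WT (lowest, median and highest). The KO libraries lay at the lower end, with WT replicate 5 among them, and the log2 fold change was -0.69 ± 0.30 (unadjusted p = 0.0323, adjusted p = 0.991, edgeR). Mmp15 was at 68.0, 139.1 and 99.2 CPM in KO and at 40.3, 131.1 and 174.0 CPM in WT (lowest, median and highest). Its log2 fold change was -0.29 ± 0.40 in the tumor set, and the groups overlapped. Mmp17 and Mmp25 were at 7.67 CPM or less in each tumor library.

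The MMPs counted as secreted were all those outside the membrane-type list, Mmp23 among them. All 7 secreted MMPs tested in tumor ECs had negative log2 fold changes, with a median of -1.77, and none passed. Over all tested genes, 6784 of 13073 were negative. Without WT replicate 2, 4 of the 6 secreted MMPs then tested were negative, with a median of -1.31. With any other library left out, all secreted MMPs then tested were negative, with medians from -2.73 to -1.73. Negative log2 fold changes were also found for 7 of 7 tested fibroblast markers, 9 of 10 mural cell markers and 3 of 3 neutrophil markers, of which none passed, and their part in the secreted MMP levels was not tested. Mmp11 was at 3.66 CPM in KO replicate 2, had no count in the other KO libraries, and was at 0.99, 5.66 and 35.1 CPM in WT (lowest, median and highest). Its log2 fold change was -3.33 ± 1.56 (unadjusted p = 0.0486, edgeR). It was -2.74 without WT replicate 2 (unadjusted p = 0.117, edgeR) and -9.55 without KO replicate 2, a fitted value with no Mmp11 count left in KO. Mmp2 was at 96.9, 45.9 and 3.53 CPM in KO. In WT it was at 801.6 CPM in replicate 2 and at 19.3 to 98.5 CPM in the other 5 libraries. Its log2 fold change was -1.77 ± 1.70, and without WT replicate 2 it was 0.35. Mmp9 was at 0.51 CPM or less in KO and at 3.82 CPM or less in WT and was not tested. Mmp3 and Mmp10, neighbors on chromosome 9, were at 41.9 and 41.3 CPM in WT replicate 4 alone and at 3.74 and 1.28 CPM or less in each other library, and neither passed the filter.

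WT replicate 2 also held the highest level among the WT libraries of Adamts2, Mmp19, Mmp11, Mmp14, Mmp15, Adam11, Adam15, Timp1 and Timp4. Without it the log2 fold change of Timp1 was -0.59. Adamts2 was at 289.0 CPM there and at 1.28 to 16.6 CPM in the other WT libraries, and Timp4 was at 56.9 CPM there and at 26.5 CPM or less elsewhere. These levels stood beside the fibroblast marker sum of 6169 CPM in that library, which also had the highest mural cell marker sum of 480.8 CPM, and their part was not tested. No fibroblast or mural cell marker was at 0 counts in all tumor libraries.

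**Figure D4:**
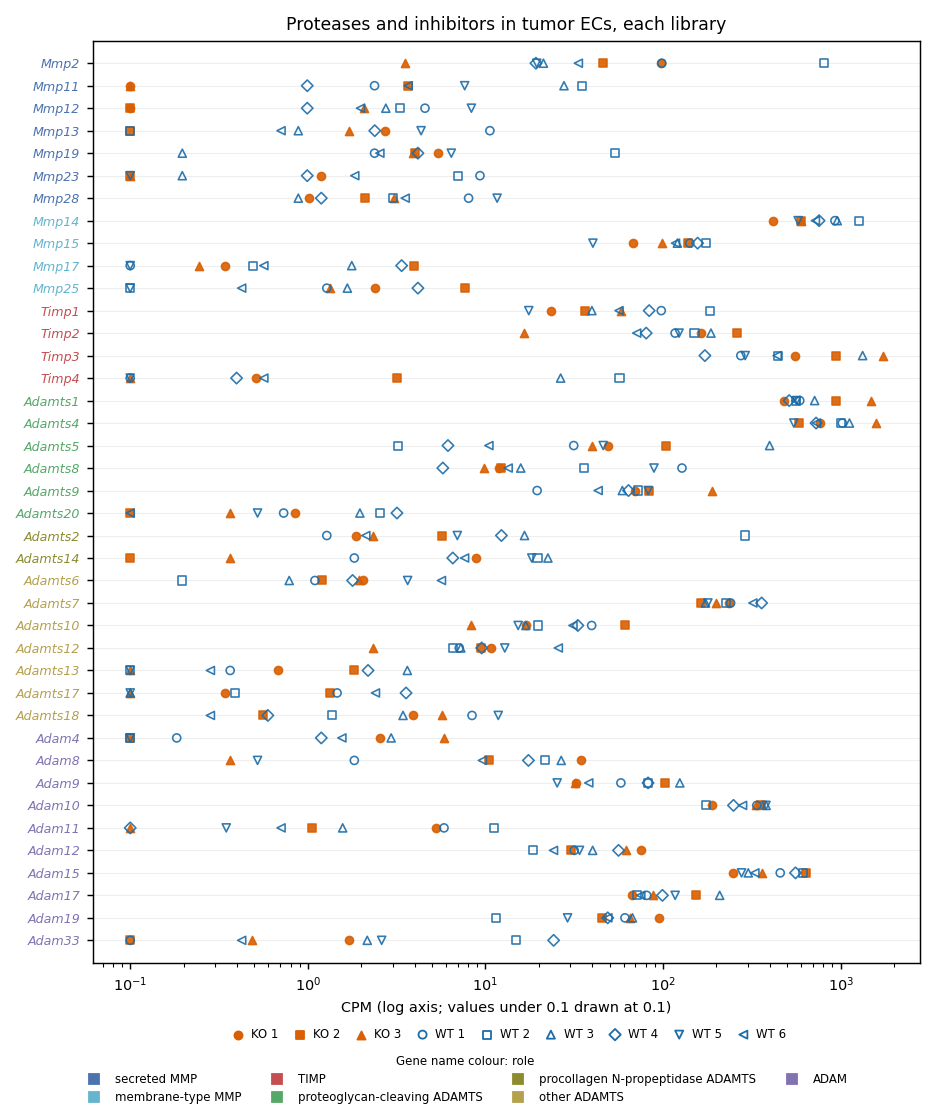
CPM on a log axis of the 40 members tested in the tumor ECs, 1 row per gene and 1 symbol per library (filled, KO; open, WT). The WT replicate 2 symbol stands far to the right for Mmp2 (801.6 CPM), Adamts2 (289.0 CPM) and Mmp19 (53.4 CPM), and KO and WT symbols overlap in every row.

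Timp3 was at 550.9, 942.3 and 1728 CPM in KO. In WT it was at 172.1, 364.9 and 1330 CPM (lowest, median and highest), and WT replicate 3 alone stood above 442.1 CPM. The log2 fold change was 1.13 ± 0.55 (adjusted p = 1.00, edgeR). It was 1.73 without WT replicate 3 (adjusted p = 0.799) and 0.60 without KO replicate 3 (adjusted p = 0.999, edgeR). Timp1 was at 23.3, 36.5 and 57.9 CPM in KO and at 17.5, 70.1 and 184.9 CPM in WT, with a log2 fold change of -1.03 ± 0.58. Timp2 was at 163.0, 260.6 and 16.6 CPM in KO and at 71.1, 120.1 and 186.2 CPM in WT, so that the KO libraries lay on both sides of WT.

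Adamts1 and Adamts4 were among the 5 members with the highest level per length in tumor ECs. Adamts1 was at 480.6, 945.2 and 1486 CPM in KO and at 513.4, 563.7 and 714.2 CPM in WT (lowest, median and highest). Of the KO libraries 2 lay above and 1 below all WT libraries, and the log2 fold change was 0.73 ± 0.30 (unadjusted p = 0.0279, adjusted p = 0.981, edgeR). Adamts4 was at 767.6, 582.2 and 1587 CPM in KO and at 545.1, 865.4 and 1121 CPM in WT. Adamts9 was at 69.2, 83.4 and 187.5 CPM in KO and at 19.6, 61.5 and 82.5 CPM in WT (log2 fold change 1.00 ± 0.43, unadjusted p = 0.0323, edgeR). Without KO replicate 3, which was the highest for both, the log2 fold change was 0.29 for Adamts1 (unadjusted p = 0.377) and 0.43 for Adamts9 (unadjusted p = 0.379, edgeR).

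Adamts8, which has known anti-angiogenic activity, was at 11.9, 12.2 and 9.87 CPM in KO and at 5.76, 25.9 and 127.9 CPM in WT. The KO libraries were close to each other and lay above WT replicate 4, and the log2 fold change was -2.08 ± 0.84 (unadjusted p = 0.0248, edgeR). Adamts5 was at 48.9, 103.3 and 40.0 CPM in KO, at 398.3 CPM in WT replicate 3 and at 3.22 to 46.0 CPM in the other WT libraries. Its log2 fold change of -0.37 ± 1.48 became 1.73 without WT replicate 3. That library also held 254 of the counts of Adamts16, which had 7 or fewer in each other library. Adamts13 was at 3.63 CPM or less in each tumor library.

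Of the ADAM sheddases, Adam15, Adam10 and Adam17 had log2 fold changes near 0 that were smaller than their standard errors. Adam15 was at 246.7, 640.1 and 363.1 CPM in KO and at 276.9, 393.1 and 614.7 CPM in WT (lowest, median and highest), with a log2 fold change of -0.02 ± 0.35. Adam10 was at 188.6, 357.8 and 332.1 CPM in KO and at 174.0, 309.0 and 380.8 CPM in WT, with a log2 fold change of -0.04 ± 0.31. For Adam17 the values were 66.8, 154.1 and 88.3 CPM in KO and 71.0, 90.1 and 208.5 CPM in WT, with a log2 fold change of -0.08 ± 0.39. Adam12 was at 74.8, 30.4 and 61.8 CPM in KO and at 18.5, 32.7 and 56.2 CPM in WT, and Adam19 at 95.2, 45.5 and 64.8 CPM in KO and at 11.4, 48.9 and 67.3 CPM in WT. Their log2 fold changes were 0.71 ± 0.43 and 0.62 ± 0.47, the groups overlapped, and neither passed. Adam8 ranged from 0.37 to 34.3 CPM in KO and from 0.52 to 26.7 CPM in WT. Its highest KO value was in replicate 1. The macrophage markers summed to 1045 CPM there, against 55.5 and 74.7 CPM in the other KO libraries. In WT their sum was highest in replicate 4, at 581.5 CPM, where Adam8 was at 17.5 CPM, below its 26.7 CPM in replicate 3. The cells were sorted as CD45-, and the part of macrophages in the Adam8 level was not tested. Whether a difference in Adam15 or Mmp15 between the sprout and tumor comparisons exceeds error was not tested.

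Levels were compared between genes only per length, as CPM per kb in tumor ECs and as TPM in sprout ECs. In tumor ECs the order was Mmp14 (291.8 CPM per kb, mean of 9 libraries), Adamts4 (244.5), Timp3 (146.4), Adamts1 (145.9) and Adam15 (145.5), and the ranges of all 5 over the libraries overlapped. In sprout ECs it was Mmp14 (79.5 TPM, mean of 4 libraries), Adam19 (65.0), Mmp2 (61.5), Adam10 (52.8) and Timp3 (51.3), and the ranges of all 5 over the libraries overlapped. Mmp14 and Timp3 were in both lists. In the sprout libraries, markers of undifferentiated mESCs summed to 2306 to 5993 CPM and those of fibroblasts to 469.1 to 3019 CPM. Endothelial markers summed to 721.9 to 2883 CPM there. The sprout levels are thus those of all sorted cells, and the part of each cell type was not tested. The TIMPs took 12.2% to 24.9% of the members' summed level per length in the tumor libraries and 12.9% to 21.4% in the sprout libraries.

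Proteoglycan-cleaving ADAMTS genes took 20.2% to 44.0% of the summed level in the tumor libraries and 6.88% to 11.9% in the sprout libraries. Secreted MMPs took 0.28% to 4.66% in the tumor libraries other than WT replicate 2, where they took 15.0%, and 13.6% to 20.05% in the sprout libraries. Membrane-type MMPs took 18.2%, 18.9% and 14.4% in KO and 23.7% to 27.5% in WT, while the KO and WT shares of each other role overlapped. Of the 4 membrane-type MMPs tested in tumor ECs, 2 had negative and 2 positive log2 fold changes, with a median of 0.13. These shares are a description with no test, and the sets of libraries were made by different protocols. Endothelial markers summed to 9369 to 16836 CPM in the tumor libraries and to 721.9 to 2883 CPM in the sprout libraries. The part of other cells in the shares was not tested.

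**Figure D5:**
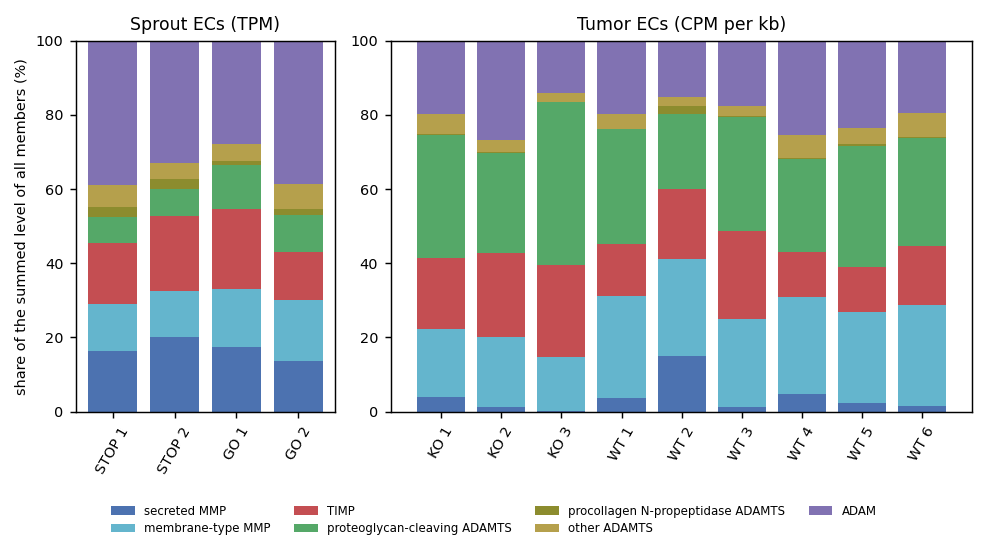
Share of the members' summed level per length (percent) taken by each role in each library, from TPM in sprout ECs on the left and from CPM per kb in tumor ECs on the right. Proteoglycan-cleaving ADAMTS genes take 20.2% to 44.0% in tumor libraries against 6.88% to 11.9% in sprout libraries, and secreted MMPs reach 15.0% in WT replicate 2.

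Other genes of the same pathways were counted in lists. Of 35 tested genes of pericellular proteolysis that are no members, 1 fell (2.86%, against 3.03% of all genes) and 2 rose (0.852% of all genes) in the sprout comparison. Ece1, which processes endothelin, fell by 1.25 on the log2 scale (adjusted p = 0.0117). Mme, the peptidase neprilysin, rose by 1.501 (adjusted p = 0.00472) and Pcolce2, an enhancer of procollagen C-proteinase, rose by 1.36 (adjusted p = 0.0254, edgeR). Of 27 tested endothelial ectodomains known as ADAM10 or ADAM17 substrates or their ligand group, 7 fell and none rose. That was 25.9%, beside 92.3% of the endothelial markers and 3.03% of all genes. The 7 were Cdh5, Dll4, Efnb2, Kdr, Procr, Tek and Tie1, of which Cdh5, Kdr, Tek and Tie1 are also endothelial markers. The log2 fold changes of Tie1, Kdr and Dll4 were -2.26, -1.95 and -1.85.

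Of 25 tested matrix substrates, 2 fell, the basement membrane linker Nid1 by 1.21 and the ADAMTS13 substrate Vwf by 1.87 on the log2 scale, and none rose. That was 8% of the list, against 3.03% of all genes. None of 8 iRhoms, Frmd8 and TspanC8 tetraspanins, which carry ADAM17 and ADAM10 to the surface, and none of 5 ADAMTS-like genes passed. In tumor ECs no gene of any of these lists passed the thresholds in edgeR. At an unadjusted p under 0.05 there, 2 listed ADAM10 or ADAM17 substrates or genes of their ligand group were lower and 3 higher. Of the matrix substrates 1 was lower and 2 higher, and 1 gene of pericellular proteolysis was higher. From the list of iRhoms, Frmd8 and TspanC8 genes 1 was lower, and no ADAMTS-like gene was either. Over all genes 2.94% were lower and 1.87% higher.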

How the data were processed

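Tumor reads were single-end and, per the study's methods, aligned with STAR, while the submitters' processing notes for these libraries list Trim Galore 0.5.0, Bowtie2 2.3.4.1, SAMtools 1.9 and featureCounts of Subread 1.6.2, and not STAR. Sprout reads were processed with STAR 2.5.0a, HTSeq 0.6.1p1 and RSEM 1.2.25 per those notes. The authors deposited raw counts per gene (featureCounts for tumor, HTSeq for sprout libraries). For sprout libraries they also deposited RSEM expected counts and TPM, which are scaled by length, with FPKM that were not used. Transcript lengths came from the RSEM tables, also for tumor levels per length. In the sprout files 54.1% to 59.1% of the tallied alignments were assigned to no gene, 42.6% to 49.6% being not unique, and these lines stayed out of library sizes.

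Counts were tested in 1 fit per set with edgeR 4.0.16 in R 4.3.3 (TMM, filterByExpr with a minimum count of 10, robust quasi-likelihood, Benjamini-Hochberg over all tested genes). A gene was called when its adjusted p was under 0.05 and its log2 fold change was above 1 in size. CPM used TMM-scaled library sizes. Alternatives were DESeq2 1.42.0, its size factors, other filters, a block for the replicate number, calls without the fold limit, rounded RSEM expected counts, limma 3.58.1 voom with sample quality weights, and each library left out. The fits were tested on simulated data. Marker sums were compared by exact permutation of the tumor libraries on log2(CPM + 1).

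The members and lists were chosen with earlier results of these data known. The genes named were Apln, members past the thresholds, tumor members with an unadjusted p under 0.05, a list of 20 members, and the 5 highest per length in each set. From other lists, members past the thresholds were named. Mmp3, Mmp10, Mmp13, Mmp16, Mmp17, Mmp19, Mmp23, Mmp25, Mmp28, Adam11, Adam20, Adam22, Adam23, Adam26a, Adam28, Adam34, Adam39, Adamts10, Adamts12, Adamts14 and Adamts16 were named after their values were seen. The ADAM genes were not split by catalytic motif, since protein sequences were not used here. Positions and promoters were read from RefSeq tables on GRCm38.p6, the build of the study's mm10.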

Additional observations from a re-analysis of the deposited data

Results flagged for a closer look

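Among the 6 WT tumor libraries, 7 of 40 tested members had 1 library far from the others. The gap was above Dixon's critical value for 6 libraries, which normally distributed values pass in about 1 in 20 groups. CPM need not be normally distributed, and the share of all tested genes past this gap was not counted. The count is thus a description, and whether it is an excess among the members was not tested. In WT replicate 2, Mmp2 was at 801.6 CPM (19.3 to 98.5 in the others), Adamts2 at 289.0 CPM (1.28 to 16.6) and Mmp19 at 53.4 CPM (0.20 to 6.43). The fibroblast markers summed to 6169 CPM in the same library (62.5 to 220.6). In WT replicate 3, Timp3 was at 1330 CPM (172.1 to 442.1), Adamts5 at 398.3 CPM (3.22 to 46.0) and Adam17 at 208.5 CPM (71.0 to 117.1). Adamts12 was at 25.7 CPM in WT replicate 6 (6.55 to 12.9). In WT replicate 4 the macrophage markers summed to 581.5 CPM (65.7 to 202.5) and the lymphocyte markers to 73.3 CPM (2.44 to 17.2).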

How the results depend on the processing

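In tumor ECs, 0 members were called under every alternative run, DESeq2 included. In sprout ECs the 2 calls, Adam15 and Mmp15, were kept with DESeq2, with its size factors, under both other filters, with RSEM expected counts and without a fold threshold. With the replicate number as a block 0 were called (adjusted p = 0.0608 for Adam15 and 0.0601 for Mmp15, edgeR). Same-numbered libraries deviated with a correlation of -0.43 in the sprout set and of -0.07, 0.06 and -0.14 in the tumor set. With 2 libraries per group the sprout deviations mirror each other. The value thus cannot show which libraries were made together, and the titles link them by number only. The block with crossed numbers, chosen after seeing the data, called 6 members lower: Adam15, Adamts1, Mmp14, Mmp15, Mmp28 and Timp3. Leaving out each sprout library in turn, which left 1 library in a group, changed the members called. Without STOP replicate 1 neither Adam15 nor Mmp15 was called. Without GO replicate 2, Mmp9 (lower, log2 fold change -1.21) and Adamts14 (higher) were called as well. All genes called lower numbered 441, against 41 with the block, 933 with the crossed block, 136 without STOP replicate 1 and 135 without GO replicate 1. Genes called higher numbered 124, against 197 with DESeq2, 222 without a filter, 3 with the block, 302 with the crossed block, 12 without STOP replicate 1, 19 without GO replicate 1 and 341 without GO replicate 2. In the tumor set 1 gene was called lower and 0 higher, against 94 and 19 with DESeq2, 7 and 9 without a filter, 2 lower with the block or without KO replicate 1, and 1 higher with voom.

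Adam15 and Mmp15 stayed negative in every sprout run. Some members that were not called turned sign, and the cause was not tested. In the tumor set the replicate block turned Timp2 to -0.53, Adam8 to -0.99, Adamts4 to -0.23, Adamts5 to 0.67 and Adamts13 to 0.57 (log2 fold change), and voom with sample weights turned Timp2 to -0.43, Adam8 to -0.85 and Adamts5 to 1.65. In the sprout set Adamts2 turned to -0.24 with the block, -0.029 with RSEM counts and -0.18 with the crossed block. With each library left out in turn, signs turned within these ranges in the tumor set: Mmp2 -2.73 to 0.35, Timp2 -0.45 to 0.81, Adam8 -1.26 to 0.78, Adam10 -0.21 to 0.20, Adam15 -0.47 to 0.25, Adam17 -0.49 to 0.22, Adamts4 -0.35 to 0.45, Adamts5 -0.91 to 1.73 and Adamts13 -1.67 to 0.22. In the sprout set they were Mmp2 -1.57 to 0.27, Mmp9 -1.21 to 0.084, Timp1 -0.20 to 0.38, Timp2 -1.52 to 1.00, Adam8 -0.71 to 0.15 and Adamts2 -1.98 to 1.28. Sprout members that kept their sign ranged from -1.66 to -0.63 for Mmp14, -2.18 to -1.07 for Adamts1, -1.87 to -0.11 for Adamts4, -2.03 to -0.23 for Adamts5, -0.89 to -0.11 for Adamts9, -1.88 to -0.26 for Adam12 and -0.92 to -0.42 for Adam10. In the tumor set Timp3 ranged from 0.60 to 1.73, Timp1 from -1.41 to -0.59 and Adamts8 from -2.31 to -1.50. Ranges there were -0.58 to -0.07 for Mmp15, 0.43 to 1.00 for Adam12 and 0.31 to 0.84 for Adam19. The log2 difference of marker sums, KO over WT, ranged from 0.30 to 0.50 for endothelial, -1.27 to 0.84 for macrophage, -2.81 to -1.94 for neutrophil, -0.81 to 0.97 for epithelial, -0.035 to 2.68 for lymphocyte 0.15 to 0.35 for platelet, -2.38 to -0.79 for fibroblast and -1.15 to -0.69 for mural cell markers. With 2 KO libraries the exact test cannot go below p = 0.0714. Depth limits members near 3 counts per library, such as Mmp9 in tumor ECs and Timp4 in sprout ECs.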
